A study of Mus musculus with 9 samples.

Results

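Mucl2, Pip and Gm1553 are 3 genes for secreted products that stood among the 10 most abundant transcripts of the mouse lacrimal gland. They were chosen by level: the 10 genes with the highest mean percent of library counts over 9 libraries were taken, and the lipocalins and secretoglobins among them were left out. That left 3 of 54232 genes in the count table. RNA was measured in lacrimal glands of C57BL/6J female mice that were fed ad libitum under 12 h of light and 12 h of dark. Glands of 2, 12 and 24 months of age gave 3 libraries per age, and the titles call the youngest group 8W. The series is about lymphoid tissue that forms in the old gland, and no other treatment or genotype was given. Whether a library stands for 1 mouse or for several is not given in the labels, and a p-value here speaks only to the spread among these libraries, which may be technical. Depth was 40516863 to 42573877 counts per library. In bulk tissue, fewer cells of a type and less RNA per cell cannot be told apart.

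The lacrimal gland makes the watery part of the tear film, and its acinar cells release protein from secretory granules. In mice these proteins include lipocalins and secretoglobins, which bind small hydrophobic molecules, and exocrine gland-secreted peptides, some of which act as pheromones. Mucl2 encodes a small mucin-like protein. Mucins are proteins rich in serine and threonine, to which O-linked sugars are attached in the Golgi apparatus, and RefSeq gives Spt1 as another name of the gene. Pip encodes prolactin-induced protein, a secreted glycoprotein of lacrimal, salivary, sweat and mammary glands. In human breast cancer cells it is induced by androgen and prolactin, and the human protein binds the zinc-alpha-2-glycoprotein AZGP1, CD4, fibronectin and actin. Gm1553 is a protein-coding gene that RefSeq also lists as Lcrn, and no function is given to it here.

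The 3 genes lie on 3 chromosomes of GRCm38 and each is short (GENCODE M21). Mucl2 (ENSMUSG00000036925) lies at chr15:103895855-103899312 on the minus strand, and its 4 exons all hold coding sequence, with 417 coding bases in a transcript of 639 bases. Pip (ENSMUSG00000058499) lies at chr6:41847535-41852065 on the plus strand, with 4 coding exons and 441 coding bases in 588. Gm1553 (ENSMUSG00000094186) lies at chr10:82486537-82492618 on the minus strand, with 4 exons of which 3 are coding, and 285 coding bases in 658. The last exon of Gm1553 is untranslated. No annotated gene overlaps any of the 3 on either strand (0 genes each).

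**Figure D1:**
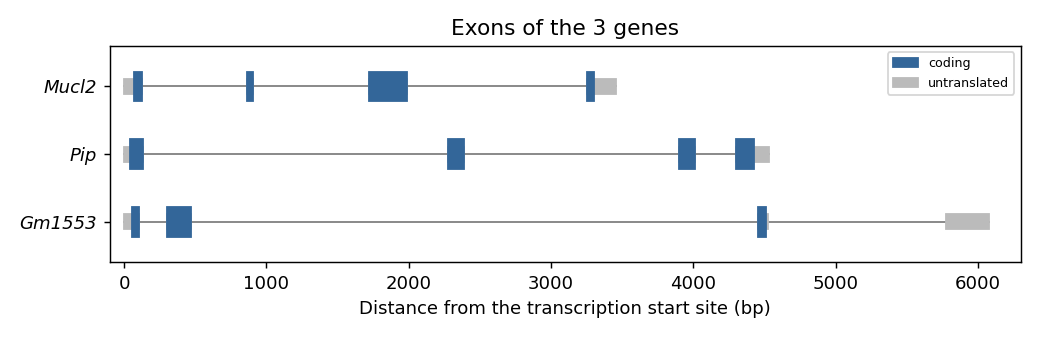
Exons of Mucl2, Pip and Gm1553 drawn from the start site in the direction of transcription, with distance in bp on the horizontal axis, coding exons as tall blue bars and untranslated parts as low grey bars. Mucl2 and Pip have 4 coding exons each, and Gm1553 has 3 followed by an untranslated last exon.

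Gm1553 is the least described of the 3, and its whole coding sequence of 285 bases follows, with the start and stop codons in capitals (GENCODE M21 transcript, GRCm38):
Gm1553: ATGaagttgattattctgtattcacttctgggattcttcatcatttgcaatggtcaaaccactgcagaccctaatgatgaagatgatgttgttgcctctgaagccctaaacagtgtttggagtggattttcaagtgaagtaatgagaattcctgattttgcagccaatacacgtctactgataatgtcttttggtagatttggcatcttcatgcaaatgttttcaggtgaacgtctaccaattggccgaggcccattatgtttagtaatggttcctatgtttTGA

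Mucl2 has a close relative, Mucl1, and reads of either gene could be mistaken for the other. The first 90 coding bases of both are shown from the start codon, with the bases at which they differ in capitals:
Mucl2: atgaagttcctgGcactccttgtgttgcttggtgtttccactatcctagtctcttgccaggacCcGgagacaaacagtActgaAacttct
Mucl1: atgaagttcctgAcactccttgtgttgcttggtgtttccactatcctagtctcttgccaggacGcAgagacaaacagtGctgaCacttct
These stretches differed at 5 of 90 bases, and over the aligned 416 coding bases 341 were identical, or 82.0%. Of 590 stretches of 50 bases in the Mucl2 transcript, 1 also occurred in Mucl1, and of 540 stretches of 100 bases, the length of 1 read, 0 did. Pip and Gm1553 shared 0 of their stretches of either length with another annotated gene. Mucl1 had 309 to 385 counts in a library, against 4308455 to 6014060 counts of Mucl2.

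The codons of the 3 genes differed in makeup. In Mucl2, serine and threonine made up 33 of 138 codons, or 23.9%, more than in 99.2% of 21567 protein-coding genes, and aspartate and glutamate made up 23.2%, more than in 99.3%. Mucl1 had 24.6% serine and threonine codons. Pip had 13.0%, more than in 47.0% of genes, and 5 cysteine codons. Gm1553 had 11.7% serine and threonine, more than in 29.1% of genes.

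The 150 bases before each start site are given 5′ to 3′ on the strand of the gene, because the genes behind them are among the most transcribed of the gland (RefSeq, GRCm38.p6). Capitals mark matches to 5 short motifs searched on both strands:
Mucl2, chr15:103899313-103899462, minus strand: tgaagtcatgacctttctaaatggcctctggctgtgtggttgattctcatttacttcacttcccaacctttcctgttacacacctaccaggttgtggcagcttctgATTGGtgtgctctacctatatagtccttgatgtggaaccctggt
Pip, chr6:41847399-41847548, plus strand: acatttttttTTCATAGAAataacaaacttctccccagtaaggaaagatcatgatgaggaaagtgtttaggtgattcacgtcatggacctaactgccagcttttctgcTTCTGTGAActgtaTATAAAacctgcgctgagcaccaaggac
Gm1553, chr10:82492619-82492768, minus strand: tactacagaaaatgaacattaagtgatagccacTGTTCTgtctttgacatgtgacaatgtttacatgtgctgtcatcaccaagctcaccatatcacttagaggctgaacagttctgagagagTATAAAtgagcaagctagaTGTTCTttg
A TATA box (TATAAA) began 28 bases before the start in both Pip and Gm1553, and 7.6% of 32851 promoter windows of the same length hold one. Only these exact letters were searched. The Mucl2 sequence has no exact match, but it reads tatata beginning at the same distance from its start. A CCAAT box (CCAAT) lay on the opposite strand of Mucl2 with its first base at -44, where it reads ATTGG (24.5% of windows). A STAT site (TTCNNNGAA) occurred at 2 places in Pip, beginning at -140 and -42 (4.1% of windows hold at least 1). A short motif of steroid receptors (AGAACA) occurred at 2 places in Gm1553, at -117 and -9, where it reads TGTTCT (9.6% of windows). The E-box bound by MIST1 (CATATG, 1.8% of windows) was found in 0 of the 3, and no motif overlapped another. A match is a run of letters and was not tested for binding. The RefSeq start of Pip lies inside the first GENCODE exon.

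The levels that chose the genes are given as a description. Mucl2 held 10.46 to 14.78% of the counts in each library and ranked 2 or 3. Gm1553 took 0.33 to 5.85% and ranked 5 to 21. Pip took 1.31 to 1.84% and ranked 10 to 12. Together they held 12.4 to 19.6% of a library. The other 7 of the 10 were the lipocalins Obp1a, Gm5938, Obp1b and Gm14743 and the secretoglobins Scgb1b2, Scgb2b2 and Scgb2b24. Pip was the last gene inside the 10, with a mean of 1.53%, and Esp15 with 1.25% and Gm14135 with 1.07% were the first outside.

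Per length, the order of the 3 by group mean was the same at each age. In TPM, a unit that scales counts by transcript length and then to a fixed sum per library, Mucl2 averaged 155430 ± 10417 at 2 months, 143280 ± 4035 at 12 months and 155969 ± 22353 at 24 months (SD, n = 3 each). Gm1553 averaged 45540 ± 5455, 67663 ± 4222 and 25383 ± 18424 TPM at the same ages. Pip averaged 18890 ± 1674, 19979 ± 1362 and 23086 ± 2045 TPM. Mucl2 lay far above the other two at every age. Gm1553 lay above Pip at 2 and 12 months, and at 24 months these neighbours did not differ beyond their spread. In 24-month replicate 3 their order was reversed, with a count of Pip 4.88 times that of Gm1553.

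Across the ages 0 of the 3 genes changed by edgeR's quasi-likelihood test with Benjamini-Hochberg adjustment over 14944 genes. The background was 7.93% of all genes called for 12 against 2 months, 17.4% for 24 against 2 months, 4.39% for 24 against 12 months, and 17% for the 3 ages together. At an unadjusted p under 0.05 the counts were 0, 0 and 1 of 3 in the comparisons of pairs, and DESeq2 called 1, 0 and 0. With limma voom 0 were called in each. A missed threshold does not show that levels were alike, and the intervals below give the differences the data allow.

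Gm1553 had the widest range of the 3. At 2 months it took 4.12, 3.38 and 4.14% of library counts, in the 12-month libraries 5.85, 5.57 and 5.21%, and in the 24-month libraries 3.21, 2.77 and 0.33%. By this share all 12-month libraries lay above all others, and all 24-month libraries lay below all others. In CPM scaled by TMM, both explained below, the 12-month libraries held 56100, 48300 and 50400. The 2-month libraries held 43100, 42200 and 48300 on that scale, so these 2 ages overlapped. At 24 months the values were 34200, 25700 and 2740. One 24-month library, replicate 3, lay far below its own group: it held 135946 counts of Gm1553, against 1306996 and 1122279 in replicates 1 and 2. The log2 fold change was -1.09 for 24 against 2 months (SE 0.59, 95% interval -2.37 to 0.18, edgeR adjusted p = 0.226) and -1.3 for 24 against 12 months (SE 0.59, interval -2.58 to -0.02, adjusted p = 0.256). Without 24-month replicate 3 these were -0.57 (adjusted p = 0.0675) and -0.78 (adjusted p = 0.0426), so that the second difference passed the threshold while its size fell. Fitted without the filter on low counts, values of -1.08 and -1.29 both passed (edgeR adjusted p = 2.37e-05 and 3.77e-07), so the call on Gm1553 depends on that filter. Gm1553 itself passes the filter, so only estimates made over all genes changed. These small p-values should not be read as measures of the spread of its 24-month libraries, whose SD of log2 CPM was 2.0. For 12 against 2 months the log2 fold change was 0.21 (SE 0.58, adjusted p = 0.875), and 0.51 (adjusted p = 0.508) when libraries were scaled by their totals alone. The 3 ages share 1 estimate of the spread, so this SE also carries that of the 24-month libraries. Fitted on the 2-month and 12-month libraries alone, the value was 0.21 with an edgeR adjusted p of 0.431.

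Mucl2 passed the edgeR test in no comparison of ages. It took 12.42, 12.26 and 13.95% of counts in the 2-month libraries, 11.4, 11.52 and 11.29% in the 12-month libraries, and 14.78, 11.75 and 10.46% in the 24-month libraries. The 12-month libraries had an SD of 0.11 percentage points and lay below all 2-month libraries, while the 24-month libraries spanned both other groups. In CPM, counts scaled to library size and here also by TMM, a factor computed from the bulk of genes, the values were 109000, 99900 and 109000 at 12 months, against 130000, 153000 and 163000 at 2 months. The log2 fold change for 12 against 2 months was -0.49 (SE 0.26, interval -1.04 to 0.07, edgeR adjusted p = 0.287). DESeq2 gave the same size with an adjusted p of 0.0318. The edgeR SE also carries the spread of the 24-month libraries. Fitted on the 2-month and 12-month libraries alone, edgeR gave -0.49 with an adjusted p of 0.0862. For 24 against 2 months the log2 fold change was -0.34 (interval -0.89 to 0.22, edgeR adjusted p = 0.412). For 24 against 12 months it was 0.15 (interval -0.41 to 0.71, adjusted p = 0.808), and -0.12 without 24-month replicate 1.

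Pip varied least of the 3 over the 9 libraries, by the root mean square of its centred log2 CPM (0.17). Its share was 1.5, 1.31 and 1.51% in the 2-month libraries, 1.58, 1.43 and 1.38% in the 12-month libraries, and 1.57, 1.84 and 1.61% in the 24-month libraries. The 2-month and 12-month libraries overlapped, 2 of 3 24-month libraries lay above all others, and the third lay just below the highest 12-month library. On the TMM scale the 12-month libraries held 15100, 12400 and 13300 CPM and did not overlap with the 2-month libraries, which held 15700, 16300 and 17700 CPM. The log2 fold change was -0.28 for 12 against 2 months (SE 0.18, interval -0.67 to 0.11, edgeR adjusted p = 0.391), -0.07 for 24 against 2 months (interval -0.47 to 0.32, adjusted p = 0.823) and 0.21 for 24 against 12 months (interval -0.19 to 0.6, adjusted p = 0.594). By library totals alone the first 2 were 0.02 and 0.22, so the sign of the Pip difference from 2 months depends on the scaling.

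**Figure D2:**
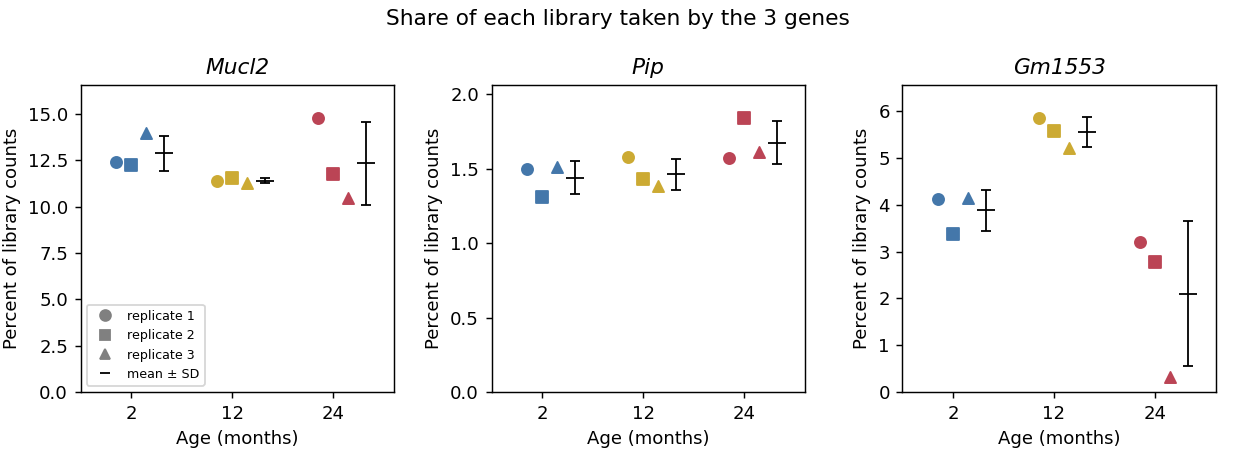
Percent of library counts (vertical axis, from 0) by age in months for Mucl2, Pip and Gm1553, with 1 symbol per library and bars for mean ± SD over 3 libraries. Gm1553 is highest at 12 months, at 5.21 to 5.85%, and 24-month replicate 3 lies at 0.33%, while Mucl2 and Pip stay within 10.46 to 14.78% and 1.31 to 1.84%.

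The scaling matters for genes of this abundance. TMM factors ran from 0.801 to 1.21, and over all genes the median log2 fold change was 0.01, 0.01 and -0.02 in the comparisons of 12 with 2, 24 with 2 and 24 with 12 months. With library totals alone that median was 0.31, 0.31 and -0.02. Percent of library counts uses no factor, and its slope on months was tested by exact permutation, two-sided, over all ways of giving the libraries to the ages. Mucl2 had a slope of -0.257 percentage points per 12 months (exact p = 0.693, adjusted over the 3 slopes 0.693). For Gm1553 the slope was -1.05 (exact p = 0.176, adjusted 0.263). For Pip it was 0.13 (exact p = 0.0399, adjusted 0.12), which did not pass after adjustment, and these p-values do not account for the choice of the genes.

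**Figure D3:**
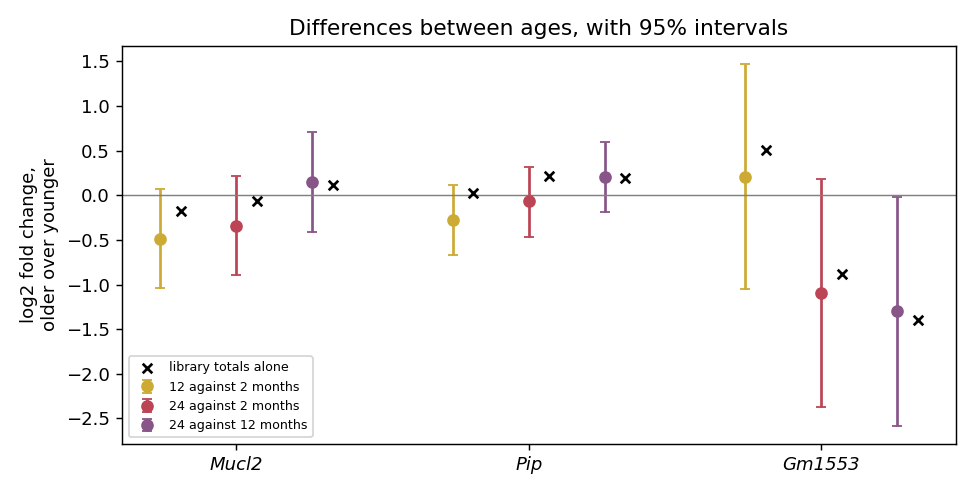
Log2 fold change, older over younger (vertical axis), of Mucl2, Pip and Gm1553 in the 3 comparisons of ages, with points and 95% intervals from edgeR with TMM scaling and crosses for scaling by library totals alone. The interval of Gm1553 at 24 against 12 months, -2.58 to -0.02, is the only one that does not include 0, and its adjusted p was 0.256.

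Ratios within a library depend on neither depth nor scaling. The count of Mucl2 over that of Gm1553 was 3.01, 3.63 and 3.37 in the 2-month libraries, 1.95, 2.07 and 2.17 in the 12-month libraries, and 4.6, 4.24 and 31.7 in the 24-month libraries. The 3 ages did not overlap, and the 12-month libraries were the lowest. On the log2 scale the means were 1.73 ± 0.14, 1.04 ± 0.08 and 3.09 ± 1.65 (SD, n = 3 each), and the slope of 0.783 per 12 months had an exact permutation p of 0.143, also 0.143 after adjustment over the 3 ratios. Pip over Gm1553 kept the same order: its log2 ratio averaged -1.43 ± 0.05, -1.92 ± 0.04 and 0.22 ± 1.81, with a slope of 0.94 (exact p = 0.0661, adjusted 0.143). Without 24-month replicate 3 these slopes were 0.183 and 0.3. The order of the ages, with 12 months apart from both others, is not one that a slope on months describes.

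The ratio of Mucl2 over Pip had a narrower range than the ratios over Gm1553. A narrow range does not show that the genes moved together. In the 24-month libraries Mucl2 took 14.78, 11.75 and 10.46% of counts, and Pip 1.57, 1.84 and 1.61%. The count ratio of Mucl2 over Pip was 8.29, 9.39 and 9.22 in the 2-month libraries, 7.22, 8.04 and 8.19 in the 12-month libraries, and 9.43, 6.38 and 6.5 in the 24-month libraries. The 12-month libraries lay below the 2-month libraries, and 1 of 3 24-month libraries lay above all others while the other 2 lay below all others. The slope of the log2 ratio was -0.157 per 12 months (exact permutation p = 0.12, adjusted 0.143), and without 24-month replicate 1 it was -0.258 (adjusted 0.0107).

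**Figure D4:**
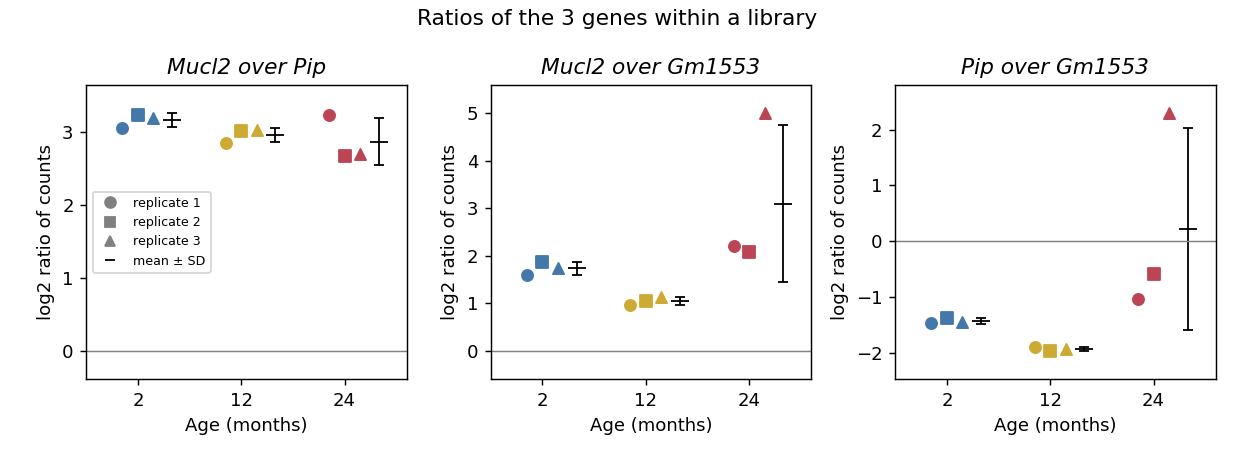
Log2 ratio of counts (vertical axis) within each library for the 3 pairs of genes, by age in months, with 1 symbol per library and bars for mean ± SD. The ratios over Gm1553 are lowest at 12 months and reach 4.99 and 2.29 in 24-month replicate 3, while Mucl2 over Pip stays between 2.67 and 3.24.

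The spread among libraries of 1 age was largest at 24 months for all 3 genes. The SD of log2 CPM of Gm1553 was 0.11 at 2 months, 0.11 at 12 months and 2.0 at 24 months, and the last exceeded that of 99.2% of the 998 genes that averaged 50 CPM or more. Mucl2 had SDs of 0.17, 0.07 and 0.43, the last above 94.3% of those genes. Pip had 0.09, 0.14 and 0.2, the last above 75.7%. The median SD of those genes was 0.11 to 0.12 at each age.

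The library behind the Gm1553 spread was low in a few other genes too. In 24-month replicate 3, 6 of the 998 genes lay at least 4-fold below both other 24-month libraries and 0 lay at least 4-fold above both. These were Gm1553, the exocrine gland-secreted peptide genes Esp15, Esp16, Esp31 and Esp36, and the salivary product gene Bpifa2. A low Bpifa2 is not particular to this library: it had 8 counts here, 8 in 2-month replicate 1 and 32 in 12-month replicate 3. In the other 8 libraries 0 to 3 genes lay as far below and 0 to 7 as far above the others of their age.

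The genes most like Gm1553 over the 9 libraries included 3 genes for exocrine gland-secreted peptides. Likeness was the root mean square difference of log2 CPM after each gene was centred on its own mean, over 998 genes, and is given as a description. The closest were Esp15 (0.61), Esp3 (0.67), Esp36 (0.72), Gm14135 (0.73) and Gm5570 (0.81), beside a root mean square of 1.28 for Gm1553 itself. Once centred, Gm1553 was at -3.52 in 24-month replicate 3 and at -0.28 to 0.84 in the other libraries. The choice of these genes thus rests mainly on that library, and their low values there follow from the choice. Esp15 held 15900, 15600 and 21300 CPM at 2 months, 16200, 16100 and 15900 CPM in the 12-month libraries, and 5790, 7840 and 293 CPM in the 24-month libraries. Like Gm1553 it was lowest in 24-month replicate 3, and its 12-month libraries lay within the range of its 2-month libraries. Its log2 fold change was -1.92 for 24 against 2 months (edgeR adjusted p = 0.088) and -1.79 for 24 against 12 months (adjusted p = 0.196). Gm14135 fell at 24 months, with 8320, 4050 and 2060 CPM, against 17600, 19700 and 19600 CPM at 2 months. Its log2 fold change was -1.98 (SE 0.38, edgeR adjusted p = 0.00531). This call was lost without the 3 libraries highest in Bpifa2 at their age (adjusted p = 0.112). Those are replicate 3 at 2 months and replicate 2 at 12 and at 24 months. Leaving them out took 1 library from each age, and calls over all genes fell from 2597 to 626. The 12-month libraries of Gm14135, with 9480, 9850 and 10800 CPM, already lay below those of 2 months (-0.92, adjusted p = 0.153). For 12 against 2 months Esp3 was at -0.71 (adjusted p = 0.243) and Esp36 at -1.3 (adjusted p = 0.159), whereas Gm1553 was at 0.21.

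The genes nearest to Mucl2 and Pip included none for exocrine gland-secreted peptides. The 5 genes closest to Mucl2 were mt-Cytb (0.1) and mt-Nd6 (0.13), which encode subunits of the respiratory chain, Eif4ebp1 (0.11) and Eif4ebp2 (0.13), which encode repressors of translation initiation, and Chpt1 (0.14), for an enzyme of phosphatidylcholine synthesis. The root mean square of Mucl2 itself was 0.3. Of these, mt-Nd6 fell on the TMM scale at 24 against 2 months (-0.47, edgeR adjusted p = 0.0492), just under the threshold. In that comparison library totals alone move the median of all genes from 0.01 to 0.31, and no mt-Nd6 value on that scale is given here. The value of mt-Cytb was -0.57 for 12 against 2 months (adjusted p = 0.0594). The 5 closest to Pip were Slc3a2 (0.05), Vmp1 (0.08), Edem1 (0.08), Gjb1 (0.08) and Sval2 (0.08), beside 0.17 for Pip itself. All genes of a library share its TMM factor (0.801 to 1.21), so genes with a steady share of counts look alike by this measure. How much of the likeness to Mucl2 and Pip this makes up was not tested. Slc3a2 encodes a subunit of amino acid transporters, Edem1 a factor of endoplasmic reticulum quality control, and Gjb1 a gap junction protein.

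**Figure D5:**
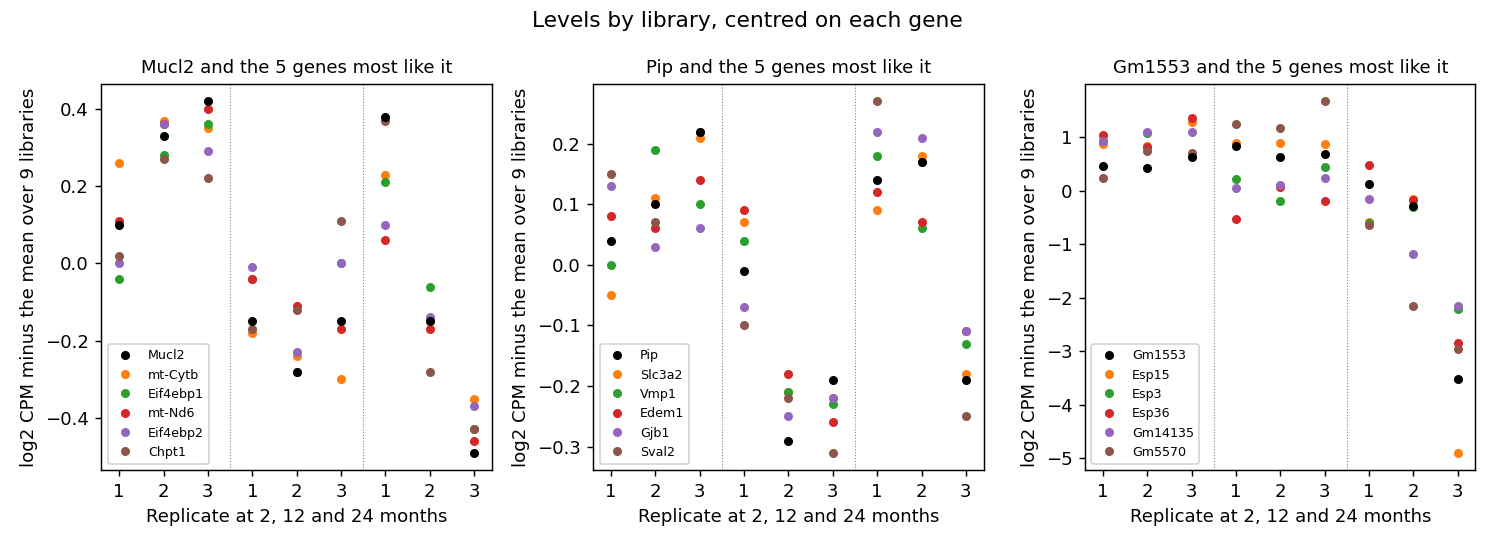
Log2 CPM minus the gene's own mean over 9 libraries (vertical axis) for each of the 3 genes in black and the 5 genes most like it in colour, with replicates 1 to 3 of 2, 12 and 24 months from left to right between dotted lines. Gm1553 and the 5 genes beside it all have their lowest value in 24-month replicate 3, the library that weighed most in choosing those 5.

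Neighbouring genes were silent or low with 1 exception. Sval2, a seminal vesicle antigen-like gene, lies 924 bp from Pip and had 117375 to 162797 counts in a library. Its relatives Sval1 and Sval3, 99565 and 116075 bp away, had 0 to 1 and 0 to 19 counts. Sval2 averaged 2870 ± 212 CPM at 12 months and 3660 ± 196 CPM at 2 months (SD, n = 3 each), with a log2 fold change of -0.35 (edgeR adjusted p = 0.226), and -0.07 for 24 against 2 months (adjusted p = 0.823). Neither passed the test. On the other side of Pip, Olfr459, Kel and Llcfc1 had at most 17, 4 and 0 counts.

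Around Mucl2, Mucl1 lay 140386 bp away and averaged 7.44 ± 1.04 CPM at 12 months and 9.79 ± 1.34 CPM at 2 months (log2 fold change -0.39, edgeR adjusted p = 0.213). For 24 against 2 months it was -0.28 (adjusted p = 0.317). How many of these Mucl1 counts came from Mucl2 reads was not tested. Glycam1, 330774 bp from Mucl2, encodes a mucin-like ligand of selectin in the vessels of lymph nodes and had 0 to 727 counts. It averaged 0.0732 ± 0.0873 CPM at 2 months, 10.6 ± 7.72 CPM at 12 months and 5.47 ± 3.54 CPM at 24 months, and rose against 2 months at both later ages (edgeR adjusted p = 0.00266 and 0.00371). Neither Glycam1 call held with limma voom (adjusted p = 0.221 and 0.244). The call at 12 months was also lost without the 3 libraries highest in Bpifa2 (adjusted p = 0.0573). Ppp1r1a had 5 to 22 counts. All these neighbours of Mucl2 lay at lower coordinates, and none was listed at higher ones. Around Gm1553 the 3 nearest protein-coding genes on each side had 0 to 374 counts, among them Tdg and Zfp938. None of these neighbours came near the level of Gm1553.

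Of 17 mucins and mucin-like genes in the count table, 4 had enough counts to be tested: Mucl2, Mucl1, Muc1 and Muc20. Muc1, a membrane mucin of epithelial surfaces, was the 1 that edgeR called in any comparison. It had 19, 246 and 203 counts at 24 months, against 4, 12 and 16 at 2 months, and rose by 3.51 on the log2 scale (SE 0.78, edgeR adjusted p = 0.011). The increase did not pass with limma voom (adjusted p = 0.113) or without the 3 libraries highest in Bpifa2 (adjusted p = 0.0942). Of the 4 mucins DESeq2 called 1 lower at 12 against 2 months, which was Mucl2, and 2 higher at 24 against both 2 and 12 months, and with library totals alone 2 were higher at 24 against 2 months. Muc5ac, Muc3 and Mucl3 had 0 counts in all 9 libraries, and Muc5b and Muc16 had counts in 1 library each. Mucl2 alone made up nearly the whole mucin signal of the gland by counts.

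Genes of mucin-type O-glycosylation belong to the pathway that attaches sugars to mucins. Of 32 genes 26 were tested, and 3 rose and 0 fell at 12 against 2 months, with a median log2 fold change of 0.28. For 24 against 2 months 4 rose and 1 fell (median 0.38), and for 24 against 12 months 0 rose and 1 fell (median 0.08; 8 of 26 had an unadjusted p under 0.05), beside medians of all genes of 0.01, 0.01 and -0.02. Over all genes 5.41% were called higher and 2.52% lower at 12 against 2 months, 9.82% and 7.56% at 24 against 2 months, and 2.79% and 1.6% at 24 against 12 months. Galnt3 and Galnt6 encode enzymes that attach the first sugar. Galnt6 had 59, 117 and 37 counts at 12 months, against 3, 6 and 4 at 2 months, and rose by 3.64 (edgeR adjusted p = 0.00651). Galnt3, far more abundant, had 29.2 ± 5.73 CPM at 24 months, against 46.5 ± 1.51 CPM at 2 months, and fell by 0.67 (SE 0.13, adjusted p = 0.00504). St6galnac4, a sialyltransferase, rose by 2.39 at 12 against 2 months (adjusted p = 0.00826) and by 2.43 at 24 against 2 months (adjusted p = 0.00499). It averaged 1.32 ± 0.32 CPM at 24 months and 0.242 ± 0.135 CPM at 2 months (SD, n = 3 each).

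The remaining O-glycosylation genes that rose were C1galt1 at 12 against 2 months (1.47, edgeR adjusted p = 0.0479), and Galnt6 (2.64, adjusted p = 0.0196), St3gal1 (1.25, adjusted p = 0.0334) and Galnt15 (0.87, adjusted p = 0.0464) at 24 against 2 months. Each of these 4 calls was lost without 1 or more single libraries. With the 3 libraries highest in Bpifa2 left out, 0 of 26 genes passed at 12 against 2 months. At 24 against 2 months 2 rose and 0 fell. That setting has 1 library fewer per age. Over all genes it called 127 at 12 against 2 months, against 1185, and 626 at 24 against 2 months, against 2597. With library totals alone 4 and 8 of the 26 rose, and 0 and 1 fell. Over all genes 1613 and 2625 rose by totals, and 80 and 191 fell. With DESeq2 5 and 7 of the 26 rose, and 0 and 1 fell, and with limma voom 2 and 1 rose, and 0 and 1 fell. In either direction DESeq2 called 1821 and 3123 of all genes, and limma voom 1035 and 2346.

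Genes of androgen and prolactin signalling, the pathways known to induce human PIP, showed 4 that rose and 0 that fell of 17 tested at 24 against 2 months (median 0.21), and likewise 4 and 0 at 24 against 12 months (median 0.24). At 12 against 2 months edgeR called 0 of 17 (6 at an unadjusted p under 0.05, 1 lower by DESeq2, median -0.1). Over all genes 9.82% rose and 7.56% fell at 24 against 2 months. The shares were 2.79% and 1.6% at 24 against 12 months, and 5.41% and 2.52% at 12 against 2 months. Socs2 and Cish encode feedback inhibitors of cytokine receptors that are induced through STAT5. Socs2 had 881, 1558 and 1379 counts at 24 months, against 191, 259 and 261 at 2 months, with no overlap, and rose by 2.14 (SE 0.19, edgeR adjusted p = 7.49e-05). Cish had 672, 712 and 844 counts at 24 months, against 244, 284 and 267 at 2 months, and rose by 1.21 (SE 0.16, adjusted p = 0.000625). Jak2, the kinase of the prolactin and growth hormone receptors, rose by 1.48 (SE 0.21, adjusted p = 0.00131).

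These 3 genes also rose at 24 against 12 months, by 2.21, 1.67 and 1.52 for Socs2, Cish and Jak2 (edgeR adjusted p = 8.17e-05, 0.000146 and 0.00193), and each of their calls held under all 19 alternatives in both comparisons. Esr1, the oestrogen receptor gene, rose by 2.33 at 24 against 2 months (adjusted p = 0.0272), with 20, 22 and 24 counts at 24 months, against 8, 1 and 2 at 2 months. Stat5b, for a transducer of the same receptors as Jak2, rose by 0.53 at 24 against 12 months (adjusted p = 0.0323). Those 2 calls were lost without several single libraries. Prlr, the prolactin receptor gene, did not pass and averaged 28.3 ± 4.31 CPM at 24 months and 27.2 ± 1.28 CPM at 2 months (0.06, adjusted p = 0.777). Pip passed the test in neither comparison.

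Among the 5 genes for partners of Pip, 1 rose at 12 against 2 months (median 0.09), and 2 rose and 1 fell at 24 against 2 months (median 0.05). Cd4, a receptor of helper T cells, had 13, 3 and 9 counts in the libraries of 2 months, 213, 368 and 96 in those of 12 months and 61, 147 and 221 in those of 24 months. It rose by 4.4 at 12 against 2 months (SE 0.58, edgeR adjusted p = 0.00112) and by 3.78 at 24 against 2 months (SE 0.57, adjusted p = 0.00174). Fn1, for fibronectin, rose by 2.13 at 24 against 2 months (adjusted p = 0.0249). Azgp1 had 107 ± 18.4 CPM at 24 months, against 150 ± 19.4 CPM at 2 months, and fell by 0.49 (SE 0.14, adjusted p = 0.0293). By library totals alone the Azgp1 value was -0.2 (adjusted p = 0.201), and the Fn1 and Azgp1 calls were lost without several single libraries. For 24 against 12 months edgeR called 0 of 5 (1 at an unadjusted p under 0.05, 1 by DESeq2). Of all genes, 5.41% rose at 12 against 2 months, and 9.82% rose and 7.56% fell at 24 against 2 months.

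Some genes of the secretory machinery of acinar cells fell at 24 months on the TMM scale. Of 31 tested, 9 fell and 1 rose at 24 against 2 months (median -0.14), beside 7.56% and 9.82% of all genes. At 12 against 2 months 1 rose and 0 fell (median -0.06), beside 5.41% and 2.52%. At 24 against 12 months 0 rose and 1 fell (median -0.03), beside 2.79% and 1.6%. Sec61b, for a subunit of the channel through which secretory proteins enter the endoplasmic reticulum, had 120 ± 9.05 CPM at 24 months, against 189 ± 13.9 CPM at 2 months, and fell by 0.66 (SE 0.11, edgeR adjusted p = 0.00222). Ssr2, for a protein beside that channel, fell by 0.51 (adjusted p = 0.011) and Spcs2, for a subunit of the signal peptidase, by 0.5 (adjusted p = 0.0195). Bhlha15, for the acinar transcription factor MIST1, fell by 0.47 (adjusted p = 0.0127), and Creb3l1, for a transcription factor of secretory cells, by 0.51 (adjusted p = 0.00871). Chrm3, the muscarinic receptor through which nerves trigger secretion, rose by 0.45 (adjusted p = 0.00839), and Vamp2, for a protein of granule release, rose by 0.4 at 12 against 2 months (adjusted p = 0.0358). The Vamp2 call was lost with the replicate number as a block (adjusted p = 0.0685) and without several single libraries. It was also lost without the 3 libraries highest in Bpifa2 (adjusted p = 0.294).

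This group depends on the scaling and the tool. At 12 against 2 months, where edgeR called 0 lower, DESeq2 called 5 lower and limma voom 4. Over all genes DESeq2 called 1821 in either direction and limma voom 1035, against 1185 by edgeR. With library totals alone 4 of 31 rose and 1 fell at 24 against 2 months (median 0.15), beside 2625 and 191 of all genes. With totals without the 10 most abundant genes 3 rose and 2 fell (median 0.03), beside 2337 and 443. Without the 3 libraries highest in Bpifa2, 1 per age, 0 passed, and calls over all genes fell from 2597 to 626. In those settings Bhlha15 was at -0.17, -0.29 and -0.45 and Sec61b kept a negative value.

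Markers of other tissues moved with some of these libraries. Of 7 lacrimal markers all were present, with a summed level of 200000 to 236000 CPM by library totals. Among them Scgb2b24 fell at 12 against 2 months (-1.15, edgeR adjusted p = 0.0158) and rose at 24 against 12 months (1.25, adjusted p = 0.0151), and at 24 against 2 months Chrm3 rose and Bhlha15 fell, as given above. Of 17 salivary gland genes 7 were tested, with a summed level of 6430 to 9230 CPM at 2 months, 10100 to 11100 CPM at 12 months and 11100 to 22900 CPM at 24 months, most of it from Car6 and Lpo, which the lacrimal gland expresses too. Lpo fell at 12 against 2 months (-0.86, adjusted p = 0.0448) and rose at 24 against 12 months (1.02, adjusted p = 0.031), Car6 rose at 24 against 2 months (0.91, adjusted p = 0.0245), and Smgc and Klk1b22 had 0 counts in every library. The Scgb2b24, Lpo and Car6 calls were all lost with the replicate number as a block (adjusted p = 0.0568 and 0.0598 for Scgb2b24, 0.0751 and 0.0659 for Lpo, 0.0592 for Car6). They were also lost without several single libraries and without the 3 libraries highest in Bpifa2 (0.487 and 0.451, 0.261 and 0.259, 0.261). Leaving out those 3 took 1 library from each age. Over all genes 127, 626 and 170 were then called, against 1185, 2597 and 656. By library totals alone the Lpo values were -0.55 (adjusted p = 0.17) and 1.05 (adjusted p = 0.0601). Bpifa2, a protein of parotid saliva, had 8, 1829 and 22857 counts in the 2-month libraries, 178, 14351 and 32 in the 12-month libraries, and 201, 8709 and 8 in the 24-month libraries. The salivary genes Amy1, Dcpp1 and Smr3a were highest in the same library of each age, with 3194, 2952 and 1825 counts of Amy1 there. Mucl2 took 13.95, 11.52 and 11.75% of counts in the libraries highest in Bpifa2 at each age, and Pip 1.51, 1.43 and 1.84%. Of 10 B cell genes 10 rose at 12 against 2 months and 8 at 24 against 2 months, and 7 fell at 24 against 12 months, with sums of 0.447 to 0.63 CPM at 2 months, 22.6 to 225.0 CPM at 12 months and 15.4 to 36.6 CPM at 24 months. Of 12 adipocyte genes 8, 9 and 0 rose in the 3 comparisons. Of 3 skeletal muscle genes tested 3 rose at 12 against 2 months and 2 fell at 24 against 12 months. The 10 muscle genes listed summed to 31.4, 1.53 and 58.7 CPM in the 12-month libraries, so this signal lay mainly in replicates 1 and 3. Over all genes 5.41, 9.82 and 2.79% rose in the 3 comparisons, and 2.52, 7.56 and 1.6% fell. With limma voom 0 of the B cell and 0 of the skeletal muscle genes were called in any comparison, and 1, 3 and 0 adipocyte genes rose. Their part in the levels of Mucl2, Pip and Gm1553 was not tested.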

How the data were processed

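The members and gene lists were chosen with earlier results of these data known. Read counts per gene were used as deposited. The submitters' processing notes name GRCm38 and the tools STAR, HTSeq, cutadapt, FastQC and DESeq2 without versions. Per the labels' protocols, the RNeasy Plus Micro kit gave the RNA, and a BGISEQ500RS read it as 100 bp pairs. The strand setting of the counting, and its annotation release, were not given in the sources used here. Besides, the authors' log2 values were deposited too, and they equalled log2 of the count divided by a median-of-ratios factor plus 1 (100.0% within 1e-06). They served that check only.

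Ensembl IDs were matched to GENCODE M21 symbols (54079 of 54232 genes; the others held at most 0.013% of a library). Where a listed symbol had several IDs, the most abundant was used. The test of the counts was that of edgeR 4.0.16 under R 4.3.3 (TMM, filterByExpr with a minimum count of 10, quasi-likelihood F test, 3 ages in 1 model). After the filter 14944 genes remained, with 99.93% or more of every library. The fit had 6 residual degrees of freedom and a common coefficient of variation of 21.2%. Benjamini-Hochberg adjustment ran over all genes, with calls under 0.05. Depth is high for the 3 genes, so the spread between libraries sets the precision of their values. TPM used the length of the main transcript. Log2 CPM for likeness and spread had a prior count of 2. Shares and ratios were tested with exact permutation tests in Python 3.11.15 with scipy 1.17.1, and coding sequences were aligned with Biopython 1.88.

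Named genes were the 3 members, the other 7 of the 10 most abundant, and up to 5 called genes with the smallest p per list and comparison. Mucl1, Prlr and Azgp1, the 3 nearest protein-coding genes per side, and the 5 genes most like each member were named too. Mucl2 had such neighbours at lower coordinates only. One further gene is not reported here. Lists covered mucins, O-glycosylation, androgen and prolactin signalling, Pip partners, acinar secretory machinery, and markers of lacrimal gland, salivary gland, skeletal muscle, adipocytes and B cells. Alternatives were other scalings, no count filter or a minimum of 50, DESeq2 1.42.0, limma 3.58.1 voom with sample weights, and only the libraries compared. Others were the replicate number as a block, and each library or the 3 highest in Bpifa2 at their age left out. Leaving out those 3 took 1 library from each age. On simulated data the procedure recovered 54, 58 and 49% of changes of 1 log2 unit and 81, 88 and 77% of changes of 2 units in the comparisons of 12 with 2, 24 with 2 and 24 with 12 months.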

Additional observations from a re-analysis of the deposited data

How the results depend on the processing

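Fitted log2 fold changes of the 3 genes were recomputed under 19 alternatives per comparison. Gm1553 ranged from -1.65 to -0.57 at 24 against 2 months and from -1.86 to -0.78 at 24 against 12 months. Without a count filter its values there were -1.08 (adjusted p = 2.37e-05) and -1.29 (3.77e-07), and the adjusted p over the 3 ages was 2.8e-07. Gm1553 itself passes the filter, so those p-values differ only through estimates made over all genes. Without 24-month replicate 3 the value at 24 against 12 months was -0.78 (0.0426) and the p over the 3 ages 0.0358, and without other single libraries that p reached 0.359. Mucl2 passed with DESeq2 at 12 against 2 months (-0.49, adjusted p = 0.0318) and over the 3 ages (0.0441). Leaving out single libraries moved Mucl2 at 24 against 12 months between -0.12 and 0.34, its percent slope between -0.997 and 0.136, and the slope of Mucl2 over Pip between -0.258 and -0.111. Its percent slope was 0.107 without 2-month replicate 3. Pip turned sign with library totals alone (0.02 at 12 and 0.22 at 24 against 2 months), with totals without the 10 most abundant genes (0.1 at 24 against 2 months) and among single libraries left out (-0.14 to 0.03).

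Other genes that turned sign at 24 against 2 months were Mucl1 (0.0) by library totals and Sval2 by both totals (0.21 and 0.1). Sval2 also did so without single libraries (-0.17 to 0.08). Prlr turned sign without the 3 libraries highest in Bpifa2 (-0.03) and without single libraries (-0.07 to 0.15). Genes called at 12 against 2 months numbered 2026 without a filter and 1821 with DESeq2, where edgeR called 1185. They numbered 127 without the 3 libraries highest in Bpifa2 and 435 to 1285 without single libraries. At 24 against 2 months they numbered 626 and 1160 to 2623, beside 2597. At 24 against 12 months they numbered 340 by library totals, 1486 without a filter and 1223 with DESeq2, beside 656. Without the 3 libraries highest in Bpifa2 they numbered 170, and without single libraries 312 to 700. By library totals the split of higher and lower calls was 1613 and 80 at 12 against 2 months, against 808 and 377 with TMM, and 2625 and 191 at 24 against 2 months, against 1467 and 1130. Replicate numbers did not pair the libraries: same-numbered libraries correlated at -0.15 to 0.06 over 9 pairs, and 0 correlated best with their own number. With the replicate number as a block 701 genes passed at 12 against 2 months and 409 at 24 against 12 months. The causes were not tested.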
